A study of Mus musculus with 48 samples.

Results

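Liver gene expression was compared between 2 groups of mice that ate the same diet after weaning and differed in the diet of their mothers. The comparison used 12 of the 48 arrays of the study, 6 livers of group HL and 6 livers of group LL, chosen by the diet in their labels. All mice were C57/BL6 and were sampled at 12 weeks of age. The first letter of a group names the diet of the dam before mating and through gestation and lactation, and the second letter names the diet of the offspring after weaning. Both diets were high in fat. Selenium (Se) was 0.44 mg/kg in diet H against 0.08 mg/kg in diet L, and folate was 2.4 mg/kg against 0.4 mg/kg. HL mice therefore came from dams fed diet H, LL mice came from dams fed diet L, and every mouse of both groups ate diet L from weaning until it was sampled after a fast and re-feeding. The study also profiled livers of the groups HH and LH, whose offspring ate diet H, and colon from all 4 groups. The methods describe the offspring as male, and the labels do not say which mice were littermates, so mice that shared a dam cannot be told apart from mice that did not.

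Se is built into selenoproteins as the amino acid selenocysteine, and the liver both uses these proteins as antioxidant enzymes and exports Se to other organs as selenoprotein P. Folate carries 1-carbon units for nucleotide synthesis and for the remethylation of homocysteine to methionine, from which S-adenosylmethionine, the methyl donor of DNA and histone methylation, is made. These pathways, together with the protein synthesis, mitochondrial, lipid, detoxification, clock and immune genes of the liver, were examined gene by gene. Each array measured 1 liver (Cy3 dye) against a common reference RNA (Cy5 dye), so a level is given as the log2 ratio of liver over reference. A level below 0 means only that the reference was brighter for that probe. A difference is the mean log2 ratio of LL minus that of HL, positive where LL was higher, with its standard error (SE) from a limma fit to all 24 liver arrays. Members of gene lists are counted at an unadjusted p under 0.05 of that fit, a level that is not a call.

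Before any comparison, 3 of the 12 livers stood apart by genes of the sex chromosomes or of the pancreas. In HL replicate 2, Xist, the RNA that silences one X chromosome in female cells, had a log2 Cy3 signal of 11.55, and the Y-linked gene Eif2s3y had a signal of 6.13. In the other HL livers Xist did not exceed 6.45 and Eif2s3y did not fall below 10.79. LL replicate 6 had an intermediate Xist signal of 8.56 with Eif2s3y at 10.63. These patterns go against the description of all offspring as male in 1 liver and in part in another. The third liver, HL replicate 1, carried the signal of digestive enzymes made by pancreatic acinar cells. Its Cpb1 (carboxypeptidase B1) had a log2 Cy3 signal of 13.98, and the other 11 livers lay between 6.91 and 9.14. The 9.14 belonged to HL replicate 6, where the signal was weaker, and no LL liver exceeded 7.80. The median of the acinar genes, each centred on the 12 livers, was 0.312 in HL replicate 6 and -0.46 to -0.16 in LL. Values without HL replicates 1 and 2 and LL replicate 6 are given below for the lists that moved most.

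Between 55.1 and 62.8% of spots were well above background in Cy3. In HL replicates 5 and 6 the deposited local background exceeded the Cy3 signal at 3 and 12 spots, and in LL replicate 6 at 1 spot. In Cy5 it exceeded the signal at 123 to 385 spots on each of the 12 arrays. Such background values were repaired on every array and in both channels before correction. With the background as deposited the SD of the log2 ratios over probes was 0.611 and 0.55 in HL replicates 5 and 6, against 0.86 to 0.94 on the other 10. After the repair it was 0.863 to 0.944 on all 12. Of the 18434 named genes, 13519 were well above background on at least 4 arrays of each group. The spread between mice was larger in HL than in LL for 63.3% of these genes, with a median SD of 0.23 in HL and 0.19 in LL on the log2 scale. By the number of these genes over 1 log2 from the median of the 12 livers, HL replicate 5 (186) and LL replicate 3 (145) deviated most. HL replicate 2 had 129 such genes, HL replicate 1 had 63 and LL replicate 6 had 23.

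No probe passed the threshold of a fold over 1.5 and a Benjamini-Hochberg adjusted p under 0.05 in LL against HL (limma, 0 of 41171 probes tested, 0%). The adjusted p rounded to 1 for every probe, so each gene named for LL against HL below had an adjusted p of 1 and is described by its values. At an unadjusted p under 0.05 there were 1269 probes (3.08%), of which 587 were higher (1.43%) and 682 lower (1.66%) in LL. This balance depended on the scaling, with 439 higher and 218 lower under median centring, 717 and 491 in the Cy3 channel alone, and 959 and 2917 with the background as deposited. Without HL replicate 1 it was 1274 higher and 1049 lower. For 44 probes (0.107%) the 6 LL livers did not overlap the 6 HL livers, with LL above HL for 30 (0.0729%) and below for 14 (0.034%). Among named genes, each represented by its brightest probe, 1.09% were higher and 1.89% lower at an unadjusted p under 0.05, 2.98% in all. The difference lay above 0 for 45.9% of named genes and below 0 for 54.1%, with a median of -0.00991. These shares are the background against which the gene lists are read.

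The genes of the interferon response were the list with the most members lower in LL at an unadjusted p under 0.05 relative to its size. Interferons bind receptors on the cell surface and switch on antiviral effectors, guanylate-binding GTPases and chemokines in hepatocytes and resident immune cells. Of the 20 measured members, 6 were lower in LL at an unadjusted p under 0.05, against 1.89% of all named genes, and 0 were higher, against 1.09%. The difference was below 0 for 18 members and above 0 for 2, with a list median of -0.23. Within slides, each of which held 1 HL and 1 LL array, 12 of the 20 members were lower in LL on at least 5 of 6 slides, which held for 10.8% of all named genes.

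The promoters of the members with an unadjusted p under 0.05 are shown because many interferon-induced genes carry the interferon-stimulated response element. Its core, GAAA followed by any 2 bases and GAAA again, was searched on both strands of the 250 bases before each RefSeq start (GRCm38.p6). It was found in 9 of the 15 listed genes with a promoter in the table and in 3.46% of all 27025 genes in the table. The gamma-activated core TTCNNNGAA was found in 3 of the 15 genes and in 8.13% of all genes. Printed here are the members of this group that held the response element core, with the matches in capitals, written as their reverse complement where the match lies on the opposite strand. The promoters lie at chr19:34640639-34640888 for Ifit1, chr3:142620413-142620662 for Gbp2 and chr3:142559794-142560043 for Gbp3 on the plus strand, and at chr5:92348890-92349139 for Cxcl10 on the minus strand. Each ends at the base before the start of the transcript, and in Gbp3 a pair of overlapping matches is merged.
Ifit1: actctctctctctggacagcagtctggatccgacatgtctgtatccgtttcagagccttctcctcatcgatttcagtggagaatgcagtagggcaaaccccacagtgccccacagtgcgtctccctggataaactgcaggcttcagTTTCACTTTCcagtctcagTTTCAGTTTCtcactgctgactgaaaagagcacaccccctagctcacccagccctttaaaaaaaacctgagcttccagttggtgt
Gbp2: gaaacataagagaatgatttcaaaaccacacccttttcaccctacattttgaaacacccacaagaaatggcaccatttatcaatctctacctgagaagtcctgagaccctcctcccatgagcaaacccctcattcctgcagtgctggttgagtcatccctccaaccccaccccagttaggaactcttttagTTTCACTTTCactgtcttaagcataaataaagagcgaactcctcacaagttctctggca
Gbp3: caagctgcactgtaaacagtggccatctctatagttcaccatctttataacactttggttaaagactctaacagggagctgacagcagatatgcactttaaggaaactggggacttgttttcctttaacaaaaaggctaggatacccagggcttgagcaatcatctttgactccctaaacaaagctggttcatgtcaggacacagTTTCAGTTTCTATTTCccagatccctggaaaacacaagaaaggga
Cxcl10: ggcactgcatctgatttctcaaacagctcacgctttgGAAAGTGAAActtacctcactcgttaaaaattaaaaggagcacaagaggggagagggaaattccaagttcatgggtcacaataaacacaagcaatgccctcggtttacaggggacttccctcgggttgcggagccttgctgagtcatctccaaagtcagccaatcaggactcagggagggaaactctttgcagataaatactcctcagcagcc
Ifit2 held no match in either of its promoters in the table, and the other promoter of Gbp3 held none. The promoter of Iigp1 is not shown.

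Iigp1, an interferon-induced GTPase that attacks the vacuoles of intracellular parasites, had the largest difference of the list. Its log2 ratio was 0.40 at the lowest, 0.67 at the median and 1.06 at the highest in HL, and -0.67, 0.14 and 0.39 in LL. The groups did not overlap, and the difference was -0.64 with an SE of 0.20. Iigp1 was lower in LL on all 6 slides, and leaving out any 1 liver kept the difference between -0.71 and -0.50.

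The guanylate-binding proteins Gbp2 and Gbp3, which coat pathogen membranes and whose promoters are printed above, were also lower in LL. Gbp3 ran from -1.56 through a median of -1.15 to -0.83 in HL and from -2.37 through -1.57 to -1.26 in LL. The groups overlapped, and the difference was -0.49 with an SE of 0.20. Gbp2 ran from -2.10 through -1.74 to -1.12 in HL and from -2.48 through -2.14 to -1.87 in LL, with a difference of -0.41 and an SE of 0.17. Members of this family share sequence, so a probe may read more than 1 of them.

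Ifit1, which binds foreign RNA, and its neighbour Ifit2 belong to a family of antiviral proteins. Ifit1 lay at -2.93, -2.22 and -2.04 (lowest, median and highest) in HL and at -3.25, -2.81 and -2.47 in LL, a difference of -0.46 with an SE of 0.19. Ifit2 lay between -2.25 and -2.07 in HL, with a median of -2.19, and between -2.80 and -2.19 in LL, with a median of -2.40. In LL its highest liver stood at the HL median, and the difference was -0.29 with an SE of 0.12. The chemokine Cxcl10, which draws activated T cells, lay at -0.82, -0.73 and 0.11 in HL and at -1.60, -1.03 and -0.74 in LL, a difference of -0.53 with an SE of 0.25. The HL liver with the strong pancreatic signal was the highest for Cxcl10, and LL replicate 4 was the lowest for Iigp1, Gbp3, Ifit2 and Cxcl10.

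**Figure D1:**
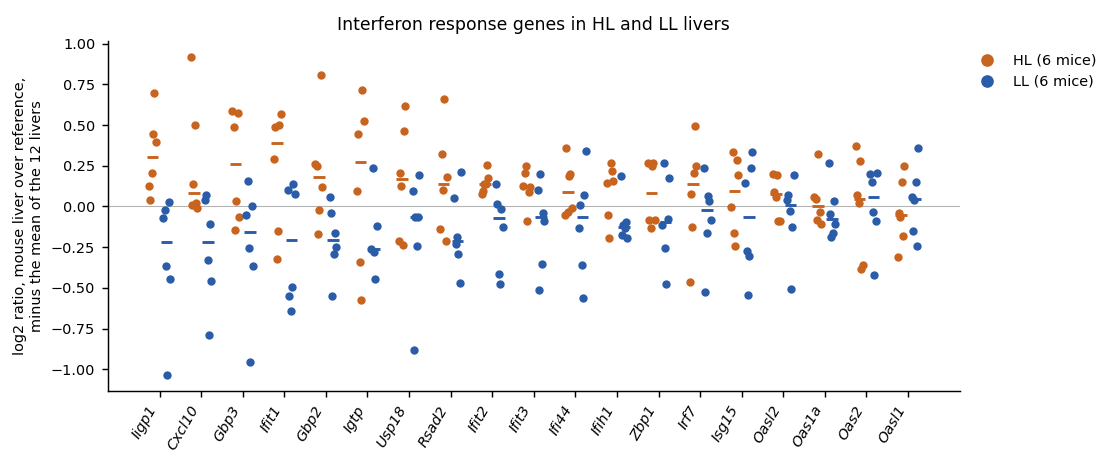
Log2 ratio of each liver minus the mean of the 12 livers (vertical axis, log2) for 19 interferon response genes (horizontal axis, ordered by the difference LL minus HL). Dots are single livers, orange for HL and blue for LL, and short lines are group medians. Iigp1, with a difference of -0.64, shows no overlap between the groups, and Oasl1 is the highest at 0.07.

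Some members lay near 0, such as the antiviral synthetase family members Oas2 and Oasl1 at 0.00 and 0.07, against a list median of -0.23. When each liver was given the median of the list after centring each gene on the 12 livers, HL ran from -0.07 through 0.14 to 0.23 and LL from -0.38 through -0.04 to 0.06. The lowest of these values belonged to LL replicate 4. Without that liver the list median was -0.18 and 2 members had an unadjusted p under 0.05, and over all single livers left out the count ran from 2 to 8. It was 3 without HL replicate 5, 3 without LL replicate 3, and 8 without LL replicate 1. Without HL replicates 1 and 2 and LL replicate 6, the livers with Xist or the strong pancreatic signal, 2 members had an unadjusted p under 0.05. The median was then -0.27. The median was below 0 in all 34 settings tried, between -0.41 and -0.18.

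In whole liver, fewer cells of a type and less RNA per cell cannot be told apart, so markers of immune cells were read beside the interferon genes. Of 8 Kupffer cell and macrophage markers, all well above background, 6 were below 0 and the median difference was -0.03. Their median per liver ran from -0.42 through 0.07 to 0.30 in HL and from -0.22 through -0.10 to 0.32 in LL. Among them Timd4, a receptor for dying cells on resident macrophages, differed by -0.37 with an SE of 0.17. The 8 T and B lymphocyte markers had a median difference of -0.03, and their median per liver ran from -0.15 to 0.23 in HL and from -0.07 to 0.05 in LL. The part of these cells in the interferon result was not tested.

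The 24 selenoprotein genes differed little. None had an unadjusted p under 0.05 in either direction, against 1.09% and 1.89% of all named genes. The difference was below 0 for 22 of the 24, the list median was -0.05, and the range was from -0.25 for Sephs2 to 0.04 for Selenom. In the Cy3 channel alone, without the reference, 13 members were below 0 and 11 above, with a median of 0.00.

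Gpx1, the cytosolic glutathione peroxidase whose mRNA is known to be sensitive to Se supply, was 0.05, 0.32 and 0.62 (lowest, median and highest) in HL and -0.18, 0.25 and 0.39 in LL. The groups overlapped over most of their range, and the difference was -0.14 with an SE of 0.13. Selenop, the plasma carrier of Se, differed by -0.17 with an SE of 0.20, with livers from 1.25 to 1.95 in HL and from 0.77 to 1.77 in LL. Selenow, a small selenoprotein that also follows Se status, differed by -0.13 with an SE of 0.14. Gpx4, which reduces lipid hydroperoxides in membranes, differed by -0.04 with an SE of 0.12, and the thioredoxin reductase Txnrd1 by -0.04 with an SE of 0.15. Selenon and Selenof, which reside in the endoplasmic reticulum (ER), differed by -0.13 and -0.15 with SEs of 0.10 and 0.13.

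**Figure D2:**
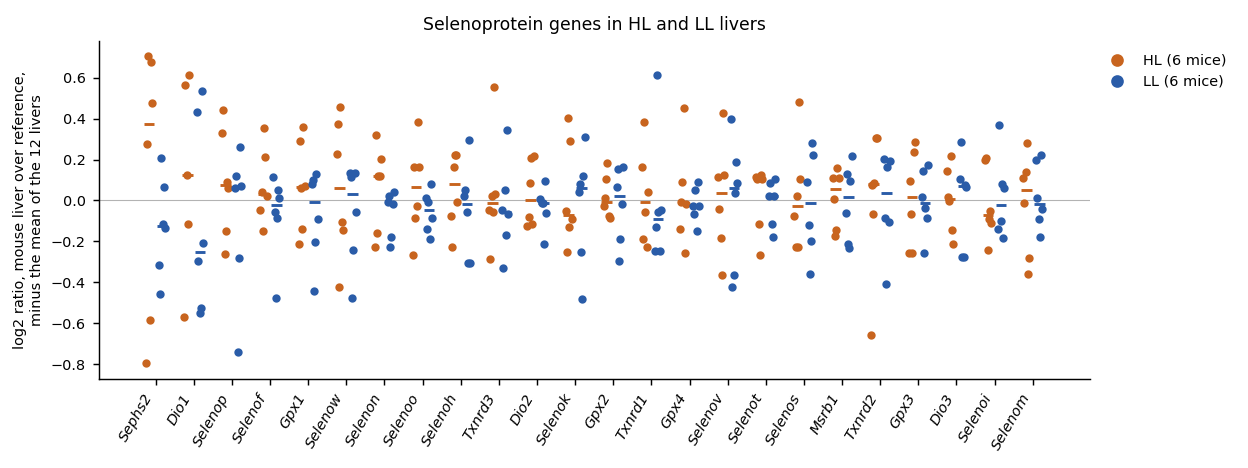
Log2 ratio of each liver minus the mean of the 12 livers (vertical axis, log2) for the 24 selenoprotein genes (horizontal axis, ordered by the difference LL minus HL). Dots are single livers, orange for HL and blue for LL, and short lines are group medians. The 2 groups overlap for every gene, and differences run from -0.25 to 0.04.

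Of 11 genes that make selenocysteine and place it into proteins, 0 had an unadjusted p under 0.05, and the median difference was 0.00. Sephs1 differed by -0.14 (SE 0.11), and Sepsecs, the synthase that completes selenocysteine on its tRNA, by -0.13 (SE 0.13).

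The folate cycle held 27 measured genes, of which 1 was lower and 0 higher at an unadjusted p under 0.05. The list median was -0.08, with 20 members below 0 and 7 above. The lower gene was Mthfd2l, a mitochondrial enzyme of 1-carbon metabolism, with livers from -0.28 through -0.19 to -0.12 in HL and from -0.53 through -0.41 to -0.19 in LL. Its groups overlapped through LL replicate 3, and the difference was -0.20 with an SE of 0.06. The trifunctional enzyme Mthfd1 differed by -0.11 with an SE of 0.20.

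In the methionine cycle and transsulfuration list, 2 of 21 genes were lower and 0 higher at an unadjusted p under 0.05, and the median was 0.02. Adk, the kinase that removes the adenosine released in the cycle, lay at 2.17, 2.25 and 2.39 (lowest, median and highest) in HL and at 1.94, 2.12 and 2.18 in LL. The ranges barely met, LL was lower on all 6 slides, and the difference was -0.18 with an SE of 0.06. For Adk the difference was -0.05 in the Cy3 channel alone, and the unadjusted p was under 0.05 in 28 of 32 settings. Mat2b, the regulatory subunit of a methionine adenosyltransferase, lay at -0.79, -0.50 and -0.22 in HL and at -1.07, -0.87 and -0.44 in LL. It was lower in LL on all 6 slides by -0.30 on average, with an SE of 0.11, and its unadjusted p stayed under 0.05 in 32 of 32 settings. Mat1a, the liver form of the transferase, differed by 0.03, Bhmt, which remethylates homocysteine with betaine, by -0.07, and Cbs, which opens transsulfuration, by 0.00 with an SE of 0.10.

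Genes that write, read or erase DNA methylation had 0 of 14 members with an unadjusted p under 0.05 and a median of -0.03. Dnmt3a, a methyltransferase that sets new marks, was higher in LL on 6 of 6 slides, and its difference was 0.25 with an SE of 0.18. The median over all probes of Dnmt3a gave 0.07. The oxidase Tet3 differed by -0.27 (SE 0.20), and by -0.13 without HL replicate 1. Of 14 imprinted growth genes, 0 had an unadjusted p under 0.05. Phlda2, which limits placental growth, differed by 0.32 (SE 0.17), and Igf2r, the receptor that clears the growth factor Igf2, by -0.19 (SE 0.14). The difference of Phlda2 was 0.15 without LL replicate 2 and -0.23 with the background as deposited.

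The cytosolic ribosomal proteins leaned the other way. Of 78 members, 71 were above 0 in LL against HL and 7 below, with a median of 0.11, against 45.9% of all named genes above 0. At an unadjusted p under 0.05, 8 were higher, against 1.09% of named genes, and 0 were lower. Within slides, 22 of the 78 were higher in LL on at least 5 of 6 slides, against 8.29% of named genes, and 1 was lower on as many. Per liver, the list median ran from -0.19 through -0.05 to 0.06 in HL and from -0.03 through 0.06 to 0.15 in LL, so the groups overlapped.

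Rpl18, a protein of the large ribosomal subunit, lay at -0.79, -0.56 and -0.49 (lowest, median and highest) in HL and at -0.54, -0.40 and 0.00 in LL. The difference was 0.29 with an SE of 0.10. Rpl37, also of the large subunit, was higher in LL on all 6 slides, by 0.27 with an SE of 0.09. Its HL livers lay from -0.27 to 0.06 with a median of -0.25, and its LL livers from -0.21 to 0.48 with a median of 0.07. The highest HL liver for Rpl37 was replicate 2, the one with Xist. Other members past that level included Rps28 at 0.34, Rpl29 at 0.30, Rpl28 at 0.29 and Rpl13 at 0.17. Rpl41 and Rps19, read for comparison, did not reach it and differed by 0.02 (SE 0.10) and 0.26 (SE 0.17). Ribosomal protein genes have many near-identical pseudogene copies, so their probes may read more than 1 transcript. Leaving out single livers gave between 4 members, without LL replicate 2, and 13, without HL replicate 1. The list median was above 0 in all 34 settings, from 0.05 without HL replicates 5 and 6 to 0.18 in the Cy3 channel alone. HL replicates 5 and 6, whose ratios were compressed before the repair of the background, had the lowest medians per liver, -0.156 and -0.187.

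Translation initiation factors had 3 higher and 1 lower of 36 at an unadjusted p under 0.05, with a median of 0.02. Eif2s3x, the X-linked gamma subunit of the factor that delivers the initiator tRNA, had the largest negative difference of this list. It lay at -0.39, 0.15 and 0.27 in HL and at -0.78, -0.53 and 0.10 in LL. LL was lower on all 6 slides, and the difference was -0.47 with an SE of 0.14. Since Eif2s3x escapes silencing on the inactive X chromosome, it was also compared without HL replicate 2, where the difference was -0.45. The median over all probes of the gene gave -0.15. Eif5, which triggers GTP hydrolysis at the start codon, differed by 0.47 (SE 0.19), with livers from 0.03 to 1.24 in HL and from 0.48 to 1.63 in LL. Eif3g, a subunit of the scaffold factor eIF3, differed by 0.19 (SE 0.08), and Eif6, which keeps the ribosomal subunits apart, by 0.22 (SE 0.09).

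Of 26 ER chaperone and unfolded protein response genes, 2 were higher and 1 lower at an unadjusted p under 0.05, with a median of 0.09. Syvn1, the ligase that marks misfolded ER proteins for degradation, differed by 0.45 (SE 0.21), and Ddit3, the stress transcription factor CHOP, by 0.33 (SE 0.16). The lower gene, the stress sensor Atf6, differed by -0.27 (SE 0.13). The chaperone Hsp90b1 differed by 0.18 (SE 0.23) and the transcription factor Xbp1 by -0.22 (SE 0.29). The direction of the list rested on a few livers, since its median was -0.11 without both livers with Xist and -0.17 when HL replicate 1 was left out as well.

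In the respiratory chain, 1 of 75 genes was higher and 0 lower at an unadjusted p under 0.05, and the median was 0.03. That gene was Ndufs7, a subunit of complex I, with a difference of 0.23 (SE 0.11). Cyc1 of complex III differed by 0.27 (SE 0.15) and Ndufb4 of complex I by -0.01 (SE 0.11). The prefoldin subunit Pfdn1, which helps to fold new proteins, differed by 0.11 (SE 0.23).

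**Figure D3:**
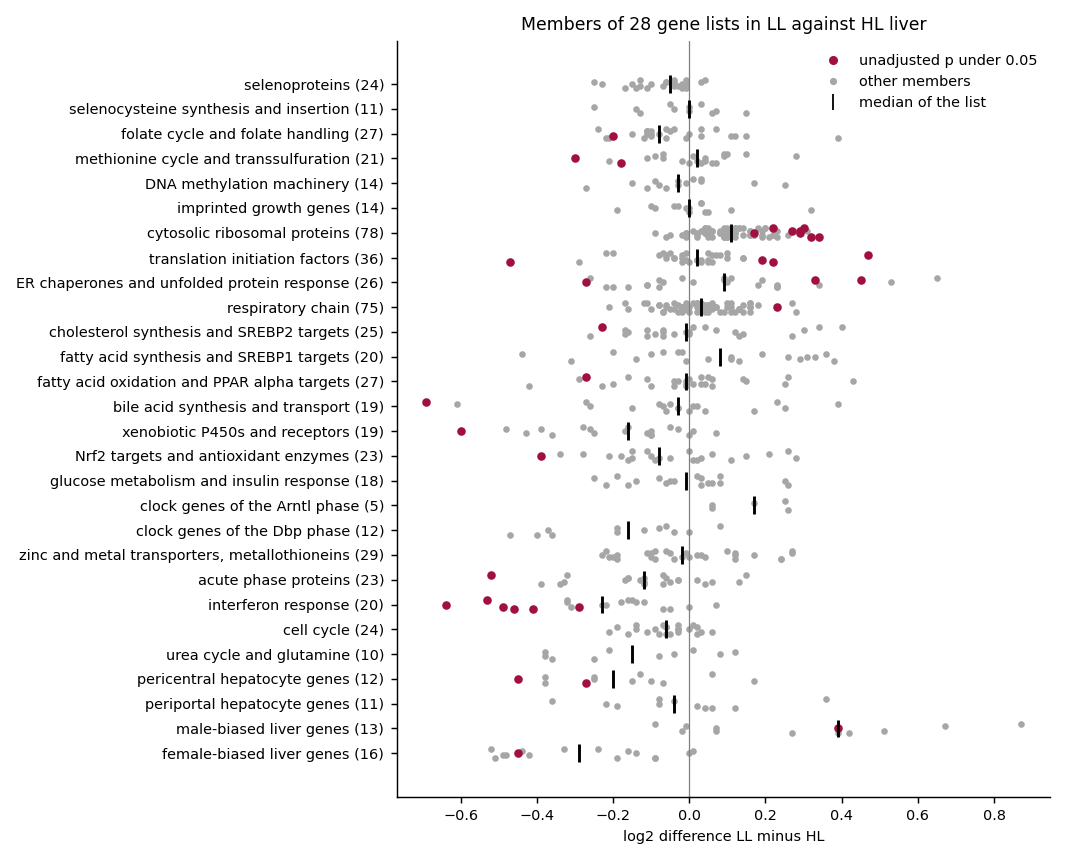
Log2 difference LL minus HL (horizontal axis) of every measured member of 28 gene lists (vertical axis, number of members in parentheses). Red points have an unadjusted p under 0.05, grey points do not, and black ticks are list medians. Red points lie to the left for the interferon response (median -0.23) and to the right for the ribosomal proteins (median 0.11). Medians further from 0 than that of the ribosomal proteins include male-biased (0.39), female-biased (-0.29) and pericentral (-0.20) genes, both clock lists (0.17 and -0.16) and the P450s (-0.16).

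Genes of drug metabolism mostly had differences below 0, by an amount that moved with several livers. Of 19 xenobiotic P450s and their receptors, 16 were below 0 and 3 above, with a median of -0.16, and 1 had an unadjusted p under 0.05. That gene, Cyp2a5, which oxidises coumarin and nicotine, lay at 4.18, 4.84 and 5.60 (lowest, median and highest) in HL and at 3.80, 4.41 and 4.79 in LL. LL was lower on all 6 slides, and the difference was -0.60 with an SE of 0.26. Without HL replicate 2 it was -0.45 and the list median was -0.10. Over all single livers left out, the list median ran from -0.28 without HL replicate 4 to -0.07 without HL replicate 6. The count was 0 without any 1 of HL replicates 2 and 6 and LL replicates 4 and 6, and 2 without HL replicate 5.

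Akr1d1, the reductase that shapes the steroid ring of bile acids, had the largest negative difference of the bile acid genes. It lay at 1.74, 2.84 and 3.08 in HL and at 1.23, 1.86 and 2.74 in LL, and the difference was -0.69 with an SE of 0.24. The ranges overlapped, LL was lower on 5 of 6 slides, and the difference stayed between -0.87 and -0.56 when any 1 liver was left out. With the background as deposited the difference of Akr1d1 was -0.14, and -0.10 when HL replicate 2 was also left out. Of all 19 bile acid genes, 1 was lower and 0 higher at an unadjusted p under 0.05, and the median was -0.03. Nr1h4, the bile acid receptor FXR, differed by 0.23 (SE 0.14).

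Hepatocytes near the central vein express P450s, glutamine synthesis and ammonium transport genes, and 10 of 12 such pericentral genes were below 0, with a median of -0.20. At an unadjusted p under 0.05, 2 of the 12 were lower, against 1.89% of all named genes, and the count ran from 1 without HL replicate 2 to 4 without HL replicate 1. Rhbg, an ammonium transporter, was -0.13, 0.49 and 1.10 (lowest, median and highest) in HL and -0.17, -0.02 and 0.22 in LL, and the difference was -0.45 with an SE of 0.20. The other, the cation transporter Slc22a3, was not well above background on any array, so no difference is given for it. Periportal genes had 0 of 11 members past that level and a median of -0.04. A list of urea cycle and glutamine genes joined urea cycle enzymes, which lie mainly in periportal cells, with pericentral genes such as Oat. Its differences ran from -0.38 for Glul, of glutamine synthesis, to 0.12 for Arg1. In this mixed list 0 of 10 members passed that level and the median was -0.15. That count was 3 without HL replicate 4 and 2 without any 1 of HL replicates 1 and 3 and LL replicate 3. Otc (ornithine transcarbamylase) was lower in LL on all 6 slides by -0.25 (SE 0.13).

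Sex-biased liver genes differed mainly through 1 liver. Male-biased genes had a median difference of 0.39, with 10 of 13 above 0, and female-biased genes of -0.29, with 15 of 16 below 0. In HL replicate 2 the centred median of the male-biased genes was -1.46 and that of the female-biased genes 1.42. Hsd3b5, a male-predominant steroid enzyme, stood at -3.31 in HL replicate 2 with an HL median of 0.20, and Elovl3, a fatty acid elongase of male liver, at -0.98 with an HL median of 2.21. Without HL replicate 2 the medians were 0.05 for the male-biased and 0.07 for the female-biased list. Without both livers with Xist they were -0.01 and -0.02.

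**Figure D4:**
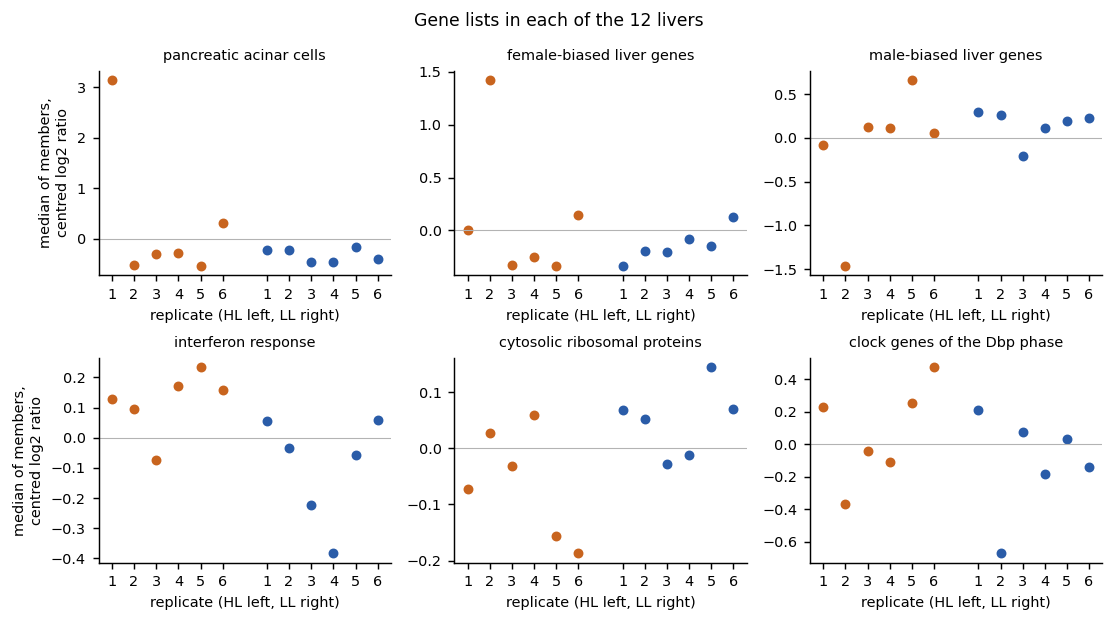
Median over list members of the log2 ratio centred on the 12 livers (vertical axis, log2, own scale in each panel) for each HL and LL liver (horizontal axis) in 6 lists. Points are single livers. HL replicate 1 stands at 3.14 for pancreatic acinar genes and HL replicate 2 at -1.46 for male-biased and 1.42 for female-biased genes, and the interferon, ribosomal and clock panels show no single liver at such a distance.

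Cholesterol synthesis genes had 1 of 25 lower and 0 higher at an unadjusted p under 0.05 and a median of -0.01. That median was -0.19 without HL replicates 1 and 2 and LL replicate 6, and 0.11 without HL replicates 5 and 6. The lower one, Acat2, the cytosolic thiolase that forms acetoacetyl-CoA, lay at 1.77, 1.86 and 2.06 (lowest, median and highest) in HL and at 1.53, 1.65 and 1.77 in LL. The groups met at 1.77, LL was lower on all 6 slides, and the difference was -0.23 with an SE of 0.08. Fatty acid synthesis genes had 0 of 20 past that level and a median of 0.08. Scd1, which makes monounsaturated fatty acids, differed by -0.31 (SE 0.19), and Mlxipl, the carbohydrate-responsive factor ChREBP, by 0.33 (SE 0.19). Among 27 genes of fatty acid oxidation the long-chain dehydrogenase Acadl was lower by -0.27 (SE 0.13), and the median was -0.01.

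Of 23 Nrf2 targets and antioxidant enzymes, 1 had an unadjusted p under 0.05. This was Nqo1, a quinone reductase induced by oxidative stress, with livers at -1.31, -0.56 and -0.18 in HL and at -1.20, -1.11 and -0.33 in LL, and a difference of -0.39 (SE 0.18). The groups overlapped widely, and LL replicate 3 stood above the other LL livers. Glucose metabolism genes had 0 of 18 past that level, the glucose transporter Slc2a2 differing by -0.25 (SE 0.15). Of 29 zinc and metal genes 0 passed it, and the zinc importer Slc39a14 differed by -0.21 (SE 0.10).

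Acute phase genes, which hepatocytes induce in inflammation, had 18 of 23 below 0 and a median of -0.12. Steap4, an iron and copper reductase, was the 1 member with an unadjusted p under 0.05, at -0.52 (SE 0.25), and the haemoglobin-binding protein Hp differed by 0.15 (SE 0.11). Cell cycle genes had 19 of 24 below 0, a median of -0.06 and 0 members past that level. Clock genes that peak with Arntl were above 0 in 5 of 5 cases with a median of 0.17, and those that peak with Dbp were below 0 in 10 of 12 with a median of -0.16, and 0 of either passed that level. The median of the Dbp phase ran from -0.28 without HL replicate 2 to -0.04 without LL replicate 2, and that of the Arntl phase from 0.34 without LL replicate 3 to 0.04 without LL replicate 2. Per3, a period gene, differed by -0.47 (SE 0.23), and by -0.26 without HL replicate 5, whose level of 1.34 was the highest. The repressor Nr1d2 was lower in LL on all 6 slides by -0.37 (SE 0.29), and by -0.18 without LL replicate 2. The livers of each group covered a wide range for the clock, from -0.37 to 0.47 in HL and from -0.67 to 0.21 in LL for the genes of the Dbp phase, and collection times were not in the labels.

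Among detected genes with an unadjusted p under 0.05, 4 had HL and LL livers that did not overlap. Iigp1 was 1 of them. Zfp664, a zinc finger protein, lay at -0.12, 0.28 and 0.42 (lowest, median and highest) in HL and at 0.46, 0.58 and 1.15 in LL, a difference of 0.46 with an SE of 0.15. It was higher in LL on all 6 slides, and its unadjusted p stayed under 0.05 in 32 of 32 settings, with differences from 0.37 to 0.57. Rrp1b, a nucleolar protein, lay at -0.36, -0.33 and -0.29 in HL and at -0.25, -0.11 and 0.00 in LL, a difference of 0.21 with an SE of 0.07, and the median over all its probes gave 0.06. Drg1, a GTPase that binds ribosomes, lay at 0.33, 0.44 and 0.62 in HL and at 0.20, 0.26 and 0.32 in LL, a difference of -0.17 with an SE of 0.08, and its unadjusted p was under 0.05 in 10 of 32 settings. The share of all named genes without overlap was 0.038% higher and 0.0271% lower in LL.

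Markers of the cell types of the liver gave few differences. Hepatocyte markers had a median of 0.04, with Alb (albumin) at 0.04 and Apoa1, the main protein of high-density lipoprotein, at 0.26 (SE 0.09). Endothelial markers had a median of 0.07, stellate cell and fibroblast markers 0.02, and cholangiocyte markers -0.03. All 7 pancreatic markers were below 0, with a median of -0.73, and this median was -0.08 without HL replicate 1. In these 7 genes HL replicate 1 was the highest liver, as for Cpb1 at 2.47 against an HL median of -4.00. The part of this signal in other results was not tested.

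The same change of dam diet was also made in offspring fed diet H after weaning, in the groups HH and LH, which share no mice with HL and LL. That contrast, LH minus HH, also gave 0 called probes (0%), but 4934 probes had an unadjusted p under 0.05 (12%) and the lowest adjusted p was 0.12 (limma). Across 13519 detected genes the 2 dam diet differences correlated negatively (Pearson r = -0.319). This is a correlation across genes, which are not independent replicates, and both contrasts come from the same slides and the same reference RNA. Of the 429 detected genes with an unadjusted p under 0.05 in LL against HL, 130 had the same sign in LH against HH. The share with the same sign over all 13519 detected genes was not counted, so nothing particular to the 429 can be read from this count. The interaction term, which tests whether the dam diet difference itself depended on the offspring diet, called 0 probes, with 4674 at an unadjusted p under 0.05 (11.4%) and a lowest adjusted p of 0.286 (limma). With the slide as a block it called 3 probes, with a lowest adjusted p of 0.0313, and with array weights 19 probes, with a lowest adjusted p of 0.0425 (limma).

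The median of the ribosomal proteins was 0.11 in LL against HL and -0.22 in LH against HH, where 35 of 78 were lower at an unadjusted p under 0.05, against 7.85% of named genes, and 1 was higher, against 5.95%. The interaction had an unadjusted p under 0.05 for 37 of the 78, against 11.6% of named genes. Respiratory chain genes had 31 of 75 at that level, with medians of 0.03 and -0.22. Rpl41, for example, differed by 0.02 in LL against HL and by -0.56 in LH against HH (interaction adjusted p = 0.29), and Ndufb4 by -0.01 and -0.64 (interaction adjusted p = 0.29).

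Several genes described above had differences of opposite sign under the 2 offspring diets. Iigp1 differed by -0.64 in LL against HL and by 0.60 in LH against HH (interaction adjusted p = 0.29). Akr1d1 differed by -0.69 and 0.79 (interaction adjusted p = 0.29), Adk by -0.18 and 0.21 (interaction adjusted p = 0.29), and Eif2s3x by -0.47 and 0.30 (interaction adjusted p = 0.29). The adjusted p of the interaction was at least 0.286 for every probe, in the fit without a slide block or array weights, so none of these passed the test. Gpx4 was below 0 in both contrasts, at -0.04 and -0.60 (interaction adjusted p = 0.303). The median of the interferon list in LH against HH was 0.00, and 7 of 20 members had an interaction p under 0.05, against 11.6% of named genes.

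**Figure D5:**
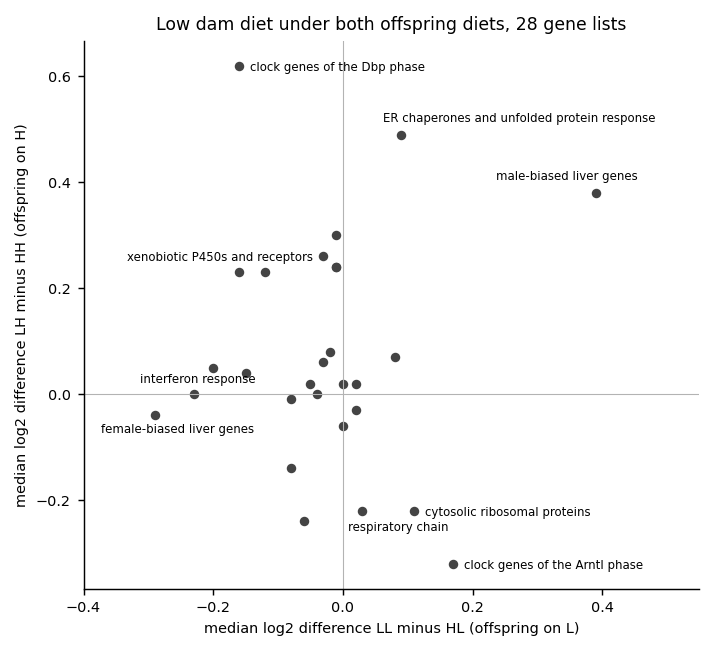
Median log2 difference of 28 gene lists for the dam diet in offspring fed diet L (LL minus HL, horizontal axis) and in offspring fed diet H (LH minus HH, vertical axis). Each point is 1 list. Ribosomal proteins lie at 0.11 and -0.22, clock genes of the Dbp phase at -0.16 and 0.62, and the interferon response at -0.23 and 0.00.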

How the data were processed

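RNA of each liver, labelled with Cy3, and a common reference RNA, labelled with Cy5, were hybridised to Agilent 2-colour arrays with 45018 spots, with no dye swap. The authors deposited the scanner output of each array, in which each spot has an intensity in both channels on a linear scale, and a table of log2 ratios made with limma in R 3.0.2, which was used as an alternative. The labels describe the reference as multi-organ RNA, and the methods as pooled intestinal and liver RNA. Intensities were corrected with normexp (offset 50), with a local background brighter than its spot set to the median local background of the array and channel, and normalised within arrays by global loess. Without this step the ratios of HL replicates 5 and 6 were compressed. The sign was turned to liver over reference, spots of a probe were averaged, control and flagged spots were left out, and no depth exists for arrays, whose number limits precision.

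Of 41174 probes, 27050 were named through their accession, giving 18434 genes, and 14124 had no name here. Differences were fitted with limma 3.58.1 in R 4.3.3 (lmFit and eBayes, 4 liver groups, with the 2 HH arrays of 1 mouse averaged), Benjamini-Hochberg adjusted over all probes, and called at a fold over 1.5 and an adjusted p under 0.05. The procedure was tested on simulated data. Apart from the 2 HH arrays of 1 mouse, each labelled sample was taken as a separate mouse.

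Named genes were, from each list, any called genes or else the 2 detected genes with the lowest p, up to 8 non-overlapping detected genes in each direction, and a set of genes of the diet and of translation. Detected means well above background on at least 4 of 6 arrays in each group. Other named genes, such as further list members, were chosen after their values were seen. Members and lists were chosen with earlier results of these data known. Replicate numbers are slide numbers. Deviations of HL and LL livers on the same slide correlated between -0.323 and 0.583 (median 0.0105), so the numbers were not taken to pair the mice. Alternatives in background, normalisation, filter, samples, weights and probe choice were run. Some genes are not reported here.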

Additional observations from a re-analysis of the deposited data

Results flagged for a closer look

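Of 154 pairs of a named gene and a group, 14 held a liver that stood apart from the other 5 by Dixon's criterion, which chance meets in about 1 of 20 groups. Levels are log2 ratios of liver over reference.

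HL replicate 2 accounted for 7 of them. In this liver Xist was 1.42 where the nearest HL liver was -3.24, Eif2s3y was -4.56 with the nearest at 0.20, and Ddx3y, also Y-linked, was -3.65 with the nearest at 0.08. The sex-biased liver genes Cyp2u1 (1.01, nearest 2.13), Elovl3 (-0.98, nearest 1.83) and the neurotrophin receptor Ntrk2 (3.00, nearest 0.56) also stood apart in it, as did the ribosomal protein Rpl37 (0.06, nearest -0.22). In LL replicate 6 Xist was -1.42 and the nearest LL liver was -3.73.

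LL replicate 3 stood apart for 4 named genes, which belong to selenium and redox metabolism. Only named genes were screened, and this liver deviated more widely. It lay over 1 log2 from the median of the 12 livers for 145 detected genes, against 12 to 51 in the other LL livers. It was the lowest LL liver for Selenof (-0.89, nearest -0.50) and for Keap1, the repressor of Nrf2 (-0.07, nearest 0.55), and the highest for Txnrd1 (0.85, nearest 0.19) and for Nqo1 (-0.33, nearest -0.97). The remaining pairs were Eif3g in HL replicate 4 (0.16, nearest 0.29) and Mat1a in HL replicate 5 (3.27, nearest 3.71).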

How the results depend on the processing

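The number of called probes in LL against HL was 0 in every setting, including an adjusted p under 0.05 with no minimum fold and an adjusted p under 0.1, and the differences of the named genes kept their direction wherever it had passed an unadjusted p under 0.05. The count of probes at an unadjusted p under 0.05, 1269 in the report, was 3876 with the local background as deposited, 657 with median centring, 718 and 598 with filters on dim probes, and 2178 with array weights. With the slide as a block (pairing by replicate number) it was 1962, and 1965 with the block and without HL replicate 2. It ran from 883 (without LL replicate 6) to 2323 (without HL replicate 1) when 1 liver was left out, was 1938 without LL replicate 3, and 2104 without HL replicates 1 and 2 and LL replicate 6. With the background as deposited and without HL replicate 2 it was 6274. Probes without overlap, 44 in the report, were 95 with the background as deposited, 28 with no correction, 28 in the deposited ratios, 17 with median centring, and 9 and 9 with the filters. Called probes in LH against HH, 0 in the report, were 6 with the HH arrays of 1 mouse as separate mice, 2 with array weights, 3 without HL replicates 5 and 6, and 0 to 2 when 1 liver was left out. Called probes of the interaction were 3 with the slide block and 19 with array weights. List medians moved with the background as deposited, without HL replicate 2 unless stated: folate 0.01, acute phase 0.03, DNA methylation -0.19 (with it) and -0.23, imprinted genes -0.21 (with it) and -0.24, interferon -0.38 (with it) and -0.41, and cell cycle -0.42 (with it) and -0.46. The ER median, which ran from -0.01 to 0.14 when 1 liver was left out, moved to -0.17 without HL replicates 1 and 2 and LL replicate 6. The cause of these shifts was not tested. The settings without HL replicate 2 in combination with a block or another background, and the one without HL replicates 1 and 2 and LL replicate 6, were chosen after seeing the data. Dim probes limit the precision, since 55.1 to 62.8% of spots were well above background.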

Other observations

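Among detected genes outside the lists with an unadjusted p under 0.05, the 10 with the largest differences in each direction were read, chosen after their values were seen, and all had an adjusted p of 1 (limma). Gbp6, another guanylate-binding protein, lay at -1.50, -1.31 and -0.37 (lowest, median and highest) in HL and at -2.32, -1.78 and -1.47 in LL, a difference of -0.73 with an SE of 0.20, and was lower on all 6 slides. Cxcl9, a chemokine induced by interferon gamma, differed by -0.75 (SE 0.34), and H2-Q1, a class I histocompatibility gene, by -0.58 (SE 0.24). Serpina6, the plasma carrier of glucocorticoids, differed by -0.52 in LL against HL and by 0.67 in LH against HH (interaction adjusted p = 0.29), and the heparan sulfate proteoglycan Sdc4 by -0.62 and 1.08 (interaction adjusted p = 0.29). Amer2, a regulator of Wnt signalling, differed by -0.87 (SE 0.27), and 1 HL liver reached 2.79 where the HL median was 1.07.

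Neat1, the long RNA on which nuclear paraspeckles form, had the largest positive difference of these genes. It lay at -2.48, -2.11 and -0.97 in HL and at -2.51, -0.68 and -0.09 in LL, a difference of 0.95 with an SE of 0.32. The groups overlapped, LL was higher on 4 of 6 slides, and the difference in LH against HH was -0.75. The remodelling ATPase Smarca4 differed by 0.60 (SE 0.25) and Chd3, of a remodelling and deacetylase complex, by 0.49 (SE 0.22), both higher on 5 of 6 slides. Inhba, a subunit of the growth factor activin, was higher on all 6 slides by 0.65 (SE 0.26), and Rspo1, which amplifies Wnt signals, by 0.62 (SE 0.28).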
